A study of Mus musculus with 11 samples.

Results

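The transcripts described here are those measured by 76 of the 26512 array probes whose level was lower in every liver after 83 d of Sorafenib than in any other liver of the series. A probe was taken when all 4 livers at 83 d lay below all 7 other livers and when their mean lay at least 0.4 below both the vehicle mean and the mean at 14 d. All levels are log2(intensity + 16) after quantile normalization over the 11 arrays, so that a difference of 1 is a doubling. The members were thus chosen by their values at 83 d against vehicle and against 14 d, and these values are given below as a description with no test.

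Sorafenib is an oral kinase inhibitor used against advanced hepatocellular carcinoma. It acts on RAF kinases in tumour cells and on the VEGF and PDGF receptors of endothelial cells and pericytes, so that it affects both the growth signals of a tumour and its blood vessels. Most of the RNA in a whole liver lysate comes from hepatocytes, with smaller parts from endothelial, stellate and immune cells. In such bulk RNA fewer cells of a type and less RNA per cell cannot be told apart.

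The livers came from iAST mice of the C57BL6n strain and were all labelled tumour liver, the controls included. In the iAST line, as background, a viral T antigen driven by the albumin promoter can be switched on in hepatocytes. Of the 11 livers, 3 were from mice given oral vehicle for 14 d, 4 from mice given oral Sorafenib at 60 mg/kg for 14 d and 4 from mice given the same dose for 83 d. The labels give an age of 12 to 15 weeks for every sample, those treated for 83 d included. Vehicle at 83 d was not analysed here, so length of treatment and lapse of time cannot be told apart in any value at 83 d. Nothing in the labels states that the livers of a group came from separate mice, so the p-values cover only the spread among these arrays, part of which may be technical.

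All vehicle livers, all livers at 83 d and replicate 4 of 14 d were hybridised on 1 chip of 8 arrays, and replicates 1 to 3 of 14 d on a second chip. The median deposited intensity of an array was 98.7 to 99.9 and the lowest intensity on any array was 74.1, so a background remained in the values. That background makes the differences of dim probes smaller than those of their transcripts. The number of arrays limits the precision. No table pairing the probes with genes was used here, so members are given by their Illumina identifiers, and their functions, genome positions and sequences were not analysed. Whether several members measure the same transcript, and whether the defining markers of liver cell types were present, was likewise not analysed here.

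The members were bright transcripts, and most of them fell by less than a doubling. Their median level with vehicle was 10.23, with quartiles of 9.23 and 11.32, where the median level of all probes over the 11 arrays was 6.84. All 76 belonged to the 13256 brighter probes, those above that median. A vehicle mean of at least 10 was found for 41 members, and for 6.55% of all probes. The rule favours bright probes, since a dim one can hardly fall by 0.4 above the background.

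The median member was 0.70 lower at 83 d than with vehicle, a ratio of 1.62-fold, and 0.59 lower than at 14 d. The difference from vehicle ranged from 0.41 to 1.95 and that from 14 d from 0.40 to 1.495. At least a doubling separated vehicle from 83 d in 14 members, 14 d from 83 d in 6, and both in 4. Over all probes the median of either difference was 0.00. Both differences were 0.5 or more in 46 members. These sizes include the remaining background. After normexp background correction the members' median difference from vehicle was 0.81, with an upper quartile of 1.06, and that from 14 d was 0.68.

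Separation without overlap was more frequent than a fall of this size. All 4 livers at 83 d lay below the 7 others in 375 probes, which is 1.41% of all probes, and the 76 members make up 0.287% of all probes. The other 299 separated probes fell by less than 0.4 against at least 1 of the groups. Conversely, 65 probes had both differences at 0.4 or more but some overlap between livers. The mirrored rule, for livers at 83 d above all others, was met by 158 probes, of 370 so separated.

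At the limit of the rule the values ran on without a break. The 3 members just inside it had a smaller difference of 0.404 to 0.406, and the 3 separated probes just outside it one of 0.388 to 0.399. The distance between the highest liver at 83 d and the lowest of the others had a median of 0.16 and ranged from 0.01 to 0.58. It was at least 0.2 in 29 members and under 0.1 in 19, so for the latter the separation was narrower than the usual spread within a group. The median SD over the members was 0.16 with vehicle, 0.18 at 14 d and 0.16 at 83 d.

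**Figure D1:**
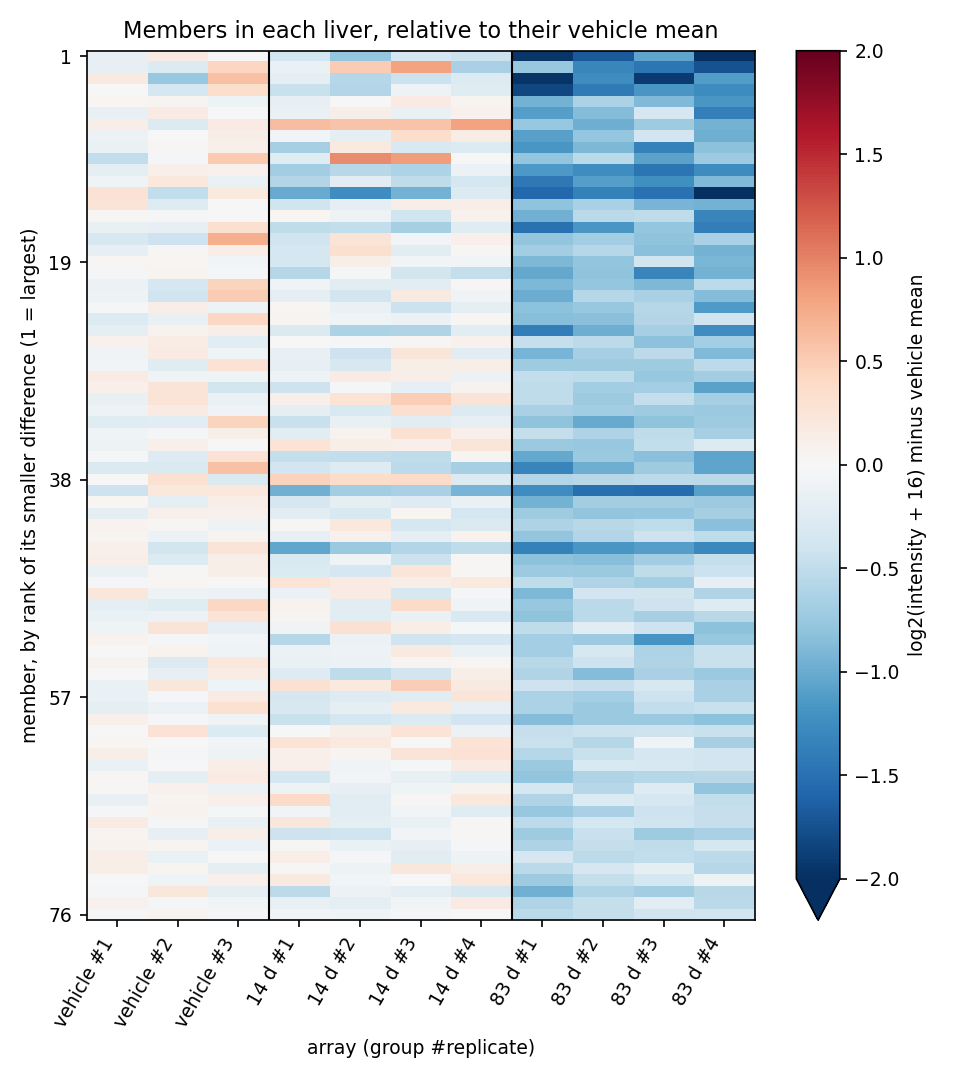
Level of each member in each liver, as log2(intensity + 16) minus its vehicle mean (colour), with the 76 members in rows by the size of their smaller difference and the 11 arrays in columns; colours are capped at -2. The 4 columns of 83 d are lower than all others in every row, as the rule requires, whereas the 14 d columns lie mostly near the vehicle level.

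ILMN_2645973 ranked first among the members by the smaller of its 2 differences. Its level was 11.28, 11.61 and 11.43 in the vehicle livers, 11.06, 10.66, 11.09 and 11.01 in replicates 1 to 4 of 14 d, and 9.49, 9.76, 10.38 and 8.34 in replicates 1 to 4 of 83 d. The 3 groups did not overlap, and the livers at 14 d lay between the others. The group means were 11.44 ± 0.17 (SD, n = 3), 10.95 ± 0.20 (SD, n = 4) and 9.49 ± 0.86 (SD, n = 4). The vehicle level was 3.85-fold and the 14 d level 2.75-fold that at 83 d. As deposited, the mean intensity was 2805 with vehicle, 1973 at 14 d and 794.2 at 83 d. The livers at 83 d differed from each other by more than vehicle did from 14 d, with replicate 4 lowest at an intensity of 308.9 and replicate 3 highest at 1321.

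ILMN_1248316 showed no such intermediate step at 14 d. It was at 9.81, 9.69 and 10.40 with vehicle, at 9.83, 10.48, 10.78 and 9.32 at 14 d, and at 9.20, 8.67, 8.53 and 8.23 at 83 d. The 14 d livers spanned the vehicle range on both sides, and replicate 4 of 14 d came within 0.12 of replicate 1 of 83 d. The means were 9.97 ± 0.38 (SD, n = 3), 10.10 ± 0.65 (SD, n = 4) and 8.66 ± 0.41 (SD, n = 4), so the vehicle level was 2.48-fold and the 14 d level 2.73-fold that at 83 d.

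The difference between 14 d and vehicle was not itself a criterion of the rule, and it asks whether these transcripts were already lower after short treatment. The rule still limits it, because a transcript that had reached its 83 d level by 14 d could not become a member. Limma called 3 of the 76 members at an adjusted p under 0.05, 2 lower and 1 higher. An unadjusted limma p under 0.05 was reached by 16 members (21.1%), 13 lower and 3 higher, and by 9.76% of all probes. These include dim probes, whereas all members are brighter ones, so this is not a like comparison. At the adjusted threshold the same fit called, over all 26512 probes, 0.886% lower and 0.279% higher, or 1.17% in either direction, and among the brighter probes 1.77% lower and 0.558% higher. The members' share in either direction was 3.95%, from so few calls that it gives no result about the members. The 73 uncalled members had differences of -0.86 to 0.39 with a median standard error of 0.14. The member farthest below vehicle at 14 d was among them, with a difference of -0.86 and a limma adjusted p of 0.0587.

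The means at 14 d nonetheless lay below vehicle more often than above it. This held for 54 of the 76 members, against 47.9% of all probes, and the median difference of 14 d from vehicle was -0.09 in the members and 0.01 in the brighter probes. In 31 members the 14 d mean was within 0.1 of the vehicle mean, in 35 it was further below and in 10 further above. In 10 members (13.2%) all 4 livers at 14 d lay below all vehicle livers, against 4.81% of all probes and 6.62% of the brighter ones. In 2 members (2.63%) all lay above, against 4.42% of all probes and 5.94% of the brighter ones. In the other 64 the groups overlapped. Over the members, the median difference from vehicle was -0.10 in replicates 1 to 3, on the second chip, and -0.02 in replicate 4, on the vehicle chip. Replicates 1 to 4 of 14 d lay below every vehicle liver in 40, 35, 28 and 23 members. The shares over all probes were 26.3%, 26.3%, 25.7% and 24.9% in that order. For replicates 1 to 3 chip and treatment cannot be told apart. The median member had covered 13.6% of its distance from vehicle to 83 d by 14 d, a share that the rule limits because it requires a further fall from 14 d to 83 d. Both differences use the same vehicle arrays, so a high vehicle mean moves them together.

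**Figure D2:**
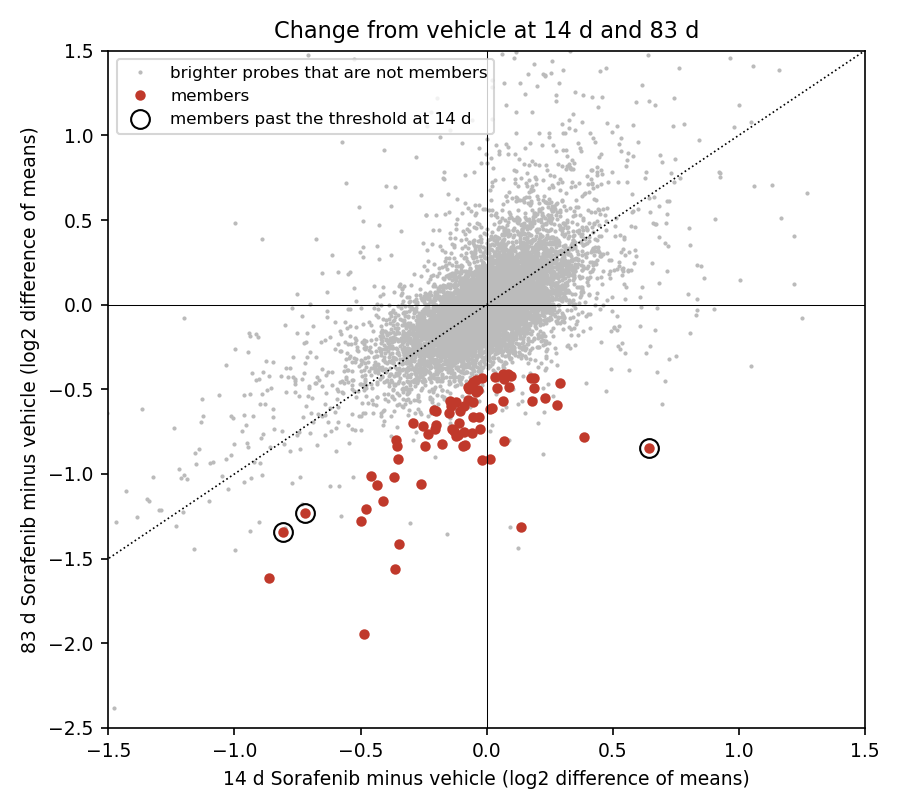
Difference of 14 d from vehicle (horizontal axis) and of 83 d from vehicle (vertical axis) in log2 units, for the 76 members (red) and the brighter probes that are not members (grey, some outside the axes), with circles around the 3 members called at 14 d and a dotted line of equal change. Members lie below the cloud by the rule, with 54 left of 0 and 22 right of it, and both axes share the vehicle arrays.

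In the 2 members called lower at 14 d, the mean lay below vehicle at both times, but neither call held under every alternative setting. Together with the third call they are named because they were called, after their values were seen. ILMN_2621643 was at 9.40, 10.01 and 10.01 with vehicle, at 8.84, 9.12, 9.16 and 8.87 at 14 d, and at 8.57, 8.29, 8.26 and 8.72 at 83 d. No groups overlapped, and replicate 4 of 83 d came closest to the 14 d livers. From vehicle to 14 d it fell by 0.81 ± 0.16 (SE), which is 60.1% of its difference between vehicle and 83 d, and limma gave an adjusted p of 0.0115. That call did not hold when vehicle replicate 2, vehicle replicate 3 or 14 d replicate 1 was left out (limma adjusted p of 0.0561, 0.0612 and 0.0522 in that order). Chip as a fixed term, which rests 14 d on replicate 4 alone, also ended it (-0.93, limma adjusted p of 0.318), whereas with chip as a random block it held (-0.81, limma adjusted p of 0.0138).

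ILMN_1224635 had the same order of groups at a higher level. It was at 11.88, 11.41 and 12.03 with vehicle, at 10.73, 11.02, 11.19 and 11.27 at 14 d, and at 10.42, 10.60, 10.67 and 10.48 at 83 d. The lowest liver at 14 d, replicate 1, was only 0.06 above the highest at 83 d. Its decrease from vehicle to 14 d was -0.72 ± 0.16 (SE), for which limma gave an adjusted p of 0.0230. Leaving out vehicle replicate 1 or 3 took the limma adjusted p to 0.146 or 0.142, and leaving out 14 d replicate 1 or 2 took it to 0.0952 or 0.0710. With chip as a fixed term the difference was -0.50 and the limma adjusted p was 0.830, and with chip as a random block they were -0.71 and 0.0287.

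A single member was called higher at 14 d, and its mean lay above vehicle at 14 d and below vehicle at 83 d. ILMN_2958159 was at 12.04, 11.66 and 12.09 with vehicle, at 12.55, 12.51, 12.51 and 12.74 at 14 d, and at 11.17, 10.96, 11.21 and 10.98 at 83 d. Each group lay apart from the others, and replicates differed little within 14 d (SD 0.11) and within 83 d (SD 0.13). The rise at 14 d was 0.65 ± 0.12 (SE), or 1.56-fold, with a limma adjusted p of 0.00859, and the liver on the vehicle chip, replicate 4, was the highest of the 4. Without vehicle replicate 2, the lowest of its group, the rise was 0.51 with a limma adjusted p of 0.0523. With chip as a fixed term it was 0.81 with a limma adjusted p of 0.174, and with chip as a random block 0.65 with one of 0.00970. At 83 d the level was 1.80-fold below vehicle and 2.82-fold below 14 d.

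Neither of the 2 members ranked first by their smaller difference was called at 14 d. ILMN_2645973 differed from vehicle by -0.49 ± 0.29 (SE; limma, adjusted p of 0.649), although its groups did not overlap, and ILMN_1248316 by 0.14 ± 0.28 (SE) with an adjusted p of 0.936. The fit shares 1 estimate of the spread over the 3 groups, so the wide spread of ILMN_2645973 at 83 d enters its standard error. In a fit of only the vehicle and 14 d arrays it was still not called (limma, adjusted p of 0.182).

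**Figure D3:**
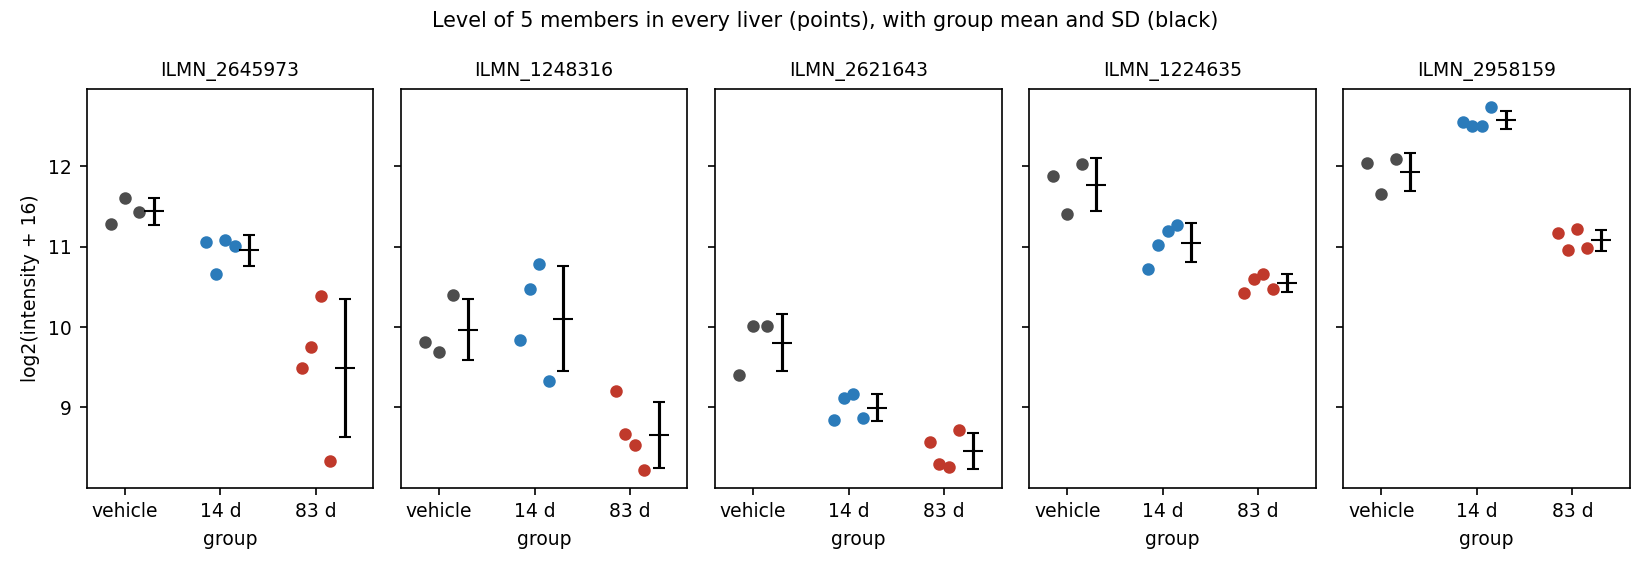
Level, as log2(intensity + 16), of 5 members in every liver (points, by replicate from left to right) with the group mean and SD in black; groups are vehicle (n = 3), 14 d (n = 4) and 83 d (n = 4). ILMN_2645973, ILMN_2621643 and ILMN_1224635 have a lower mean at each later time, ILMN_1248316 overlaps vehicle at 14 d, and ILMN_2958159 is highest at 14 d and lowest at 83 d.

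On average over the members, the 4 livers at 83 d differed little in the size of the fall. The rule favours this, because each of them had to lie below all 7 other livers. Among probes chosen without replicate 3 of 83 d, the median difference was 0.32 in that liver and 0.55 in the kept ones. The mean of the 76 members relative to vehicle was -0.83, -0.72, -0.69 and -0.79 in replicates 1 to 4 of 83 d. It was -0.18, -0.12, -0.07 and -0.07 in replicates 1 to 4 of 14 d, and -0.04, -0.04 and 0.08 in the vehicle livers. Replicate 1 of 83 d was the lowest of its group in 33 members and replicate 3 the highest in 28. The members did not move as a single block within groups. The correlation of their deviations from the group means over the 11 arrays had a median of 0.07 over 2850 pairs of members, against 0.00 among 1894 evenly spaced brighter probes, and 30 pairs (1.05%) reached 0.8, against 0.652% of the pairs of those probes. These points share arrays and normalization, and the values are a description.

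**Figure D4:**
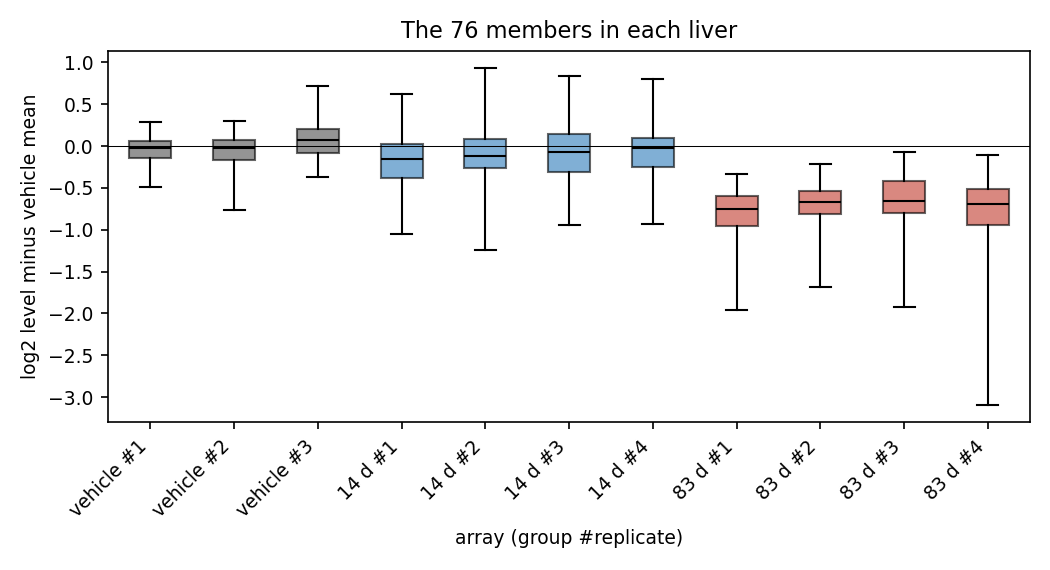
Levels of the 76 members in each of the 11 livers, in log2 units relative to each member's vehicle mean; boxes give the quartiles and the median, and whiskers the lowest and highest member. The medians at 83 d lie at -0.76 to -0.65 and those at 14 d at -0.16 to -0.02.

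The rule was also applied without each liver at 83 d in turn, so that the left-out liver had no part in the choice. Without replicate 1, 69 probes were chosen, and replicate 1 was below all 7 other livers in 66 of them (95.7%), against 16% of all probes. Without replicate 2 it was 75 of 82 (91.5%, against 14.4%), and without replicate 4 it was 77 of 94 (81.9%, against 14.1%). Without replicate 3, 131 probes were chosen and replicate 3 lay below the others in 82 of them (62.6%, against 13.7%). Replicate 3 therefore set the number of members more than any other liver, and the median difference in it was 0.32 where the kept livers had 0.55. The vehicle and 14 d livers took part in each choice, so these shares are not independent of them. The chosen probes already had the kept livers at 83 d below all 7 others. The share over all probes carries no such condition and includes dim probes, so it is not a like comparison.

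The chip was shared by vehicle and 83 d, so it did not differ between these groups, but it did differ for 3 of the 4 livers at 14 d. On the shared chip, replicate 4 of 14 d was at position A, 83 d at B to E and vehicle at F to H. Position and group cannot be told apart there. The rule required replicate 4 of 14 d to lie above every liver at 83 d and counted it in the 14 d mean, so its distance from 83 d is a description and no check on the chip. Replicate 4, on the same chip as 83 d, stood above the 83 d mean by a median of 0.66 over the members, and replicates 1 to 3 by 0.58. In 64 members the difference in replicate 4 alone was 0.4 or more. Replicate 4 lay above the mean of replicates 1 to 3 in 50 members, with a median difference of 0.08, against 0.00 in the brighter probes. The liver nearest to 83 d belonged to 14 d in 53 members, and it was replicate 1 in 21, replicate 2 in 15, replicate 3 in 10 and replicate 4 in 7. With only the 8 arrays of the shared chip 146 probes met the rule, 64 of them members, in a rule that then asks less because it has 4 livers to lie below.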

How the data were processed

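Per the labels, biotin-labelled total RNA from whole liver lysates was measured on bead chips, with 1 position of a chip for each sample; the probe identifiers are Illumina's. The deposited file held 1 intensity per probe and array for 26512 probes, on a linear scale and close to a single distribution over arrays, as judged from the values. The authors' software, background correction and normalization are not given in the sources used here. An offset of 16 was added, log2 taken and the arrays quantile normalized. Groups came from the source labels, and chip and position from the descriptions. Group means at 14 d and with vehicle were set against each other in limma 3.58.1 under R 4.3.3 (lmFit on all 11 arrays in 3 groups, eBayes with an intensity trend, two-sided), with Benjamini-Hochberg adjustment over all probes and a threshold of 0.05. The fit and the rule were tested on simulated data. Figures used matplotlib 3.10.9 in Python 3.11.15.

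The members and lists were chosen with earlier results of these data known. The rule for naming took, with no table pairing probes with genes, the first 2 members by their smaller difference. The 3 members called at 14 d were added. The 37 gene lists of cell types and pathways that were to be set beside the members, other probes of the members' genes and promoter motifs need gene names and were not analysed here.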

Additional observations from a re-analysis of the deposited data

How the results depend on the processing

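The number of members was within 1.5 times the 76 under offsets of 1 and 50, without quantile normalization and with median centring (70 to 80 probes, of which 70 to 76 were members). In the brighter probes alone the number was 76 by construction, since all members are brighter probes and their values are the same. It was 153 after normexp background correction, which kept all 76 and added 77 probes of a median level of 7.50 against 9.74 in the members, 237 with a difference of 0.2, 29 with one of 0.6, and 146 on the shared chip alone. Leaving out each array in turn gave 69 to 131, the highest without 83 d replicate 3. The 3 calls at 14 d held with the chip as a random block and became 0 with the chip as a fixed term and 0 on the shared chip alone, where limma gave 5 members an unadjusted p under 0.05 in each case. Both of these rest 14 d on replicate 4, which was assumed to vary like the other arrays. Leaving out each array gave 1 to 5 calls. There was 1 without vehicle replicate 3 (327 calls over all probes) or 14 d replicate 1 (217 over all probes). There were 5 without 14 d replicate 4, with 424 over all probes. Under the other alternatives there were 2 to 4, with 187 to 407 calls over all probes tested. The calls of ILMN_2621643 (adjusted p = 0.0584) and ILMN_1224635 (0.0717) ended without an intensity trend, and that of ILMN_1224635 with only the groups compared (0.0505). The uncalled difference of ILMN_1248316 at 14 d kept its sign with the chip as a random block (0.12) and changed it with the chip as a fixed term or on the shared chip alone (-0.64 in both) and without vehicle replicate 2 (-0.0045) or 14 d replicate 3 (-0.0904), and leaving out each array gave it -0.0904 to 0.396. The causes were not tested. With the replicate number as a replicate block the same 3 members were called and 340 of all probes in place of 309. Same-numbered vehicle and 14 d livers deviated with correlations of -0.04 to 0.01. These values show no pairing by number, but so few livers cannot exclude it. The alternatives planned for the gene lists were not run. Signal over background limits what can be seen of dim transcripts. None of 12 sets of 4 values (the 5 named members and the members' mean, at 14 d and at 83 d) held an outlying array by Dixon's test, which at this size finds only wide gaps.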
